A study of Mus musculus with 48 samples.

Results

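Of 43 listed skeletal muscle genes, 39 were matched by symbol in a table of 39637 genes measured in 48 mouse tumours, and 37 passed the filter on low counts. The 39 comprised 11 thick filament genes, 8 thin filament genes, 8 genes of the Z-disc and titin, 7 calcium-handling genes and 5 genes of energy metabolism. Mb, Myoz1, Ldb3 and Trdn were not analysed here. Myl2 and Myl3, the regulatory and essential light chains of slow and cardiac myosin, did not pass the filter.

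The tumours were grown under the skin of female BALB/c mice aged 8 to 9 weeks. AB1 tumours arose from mesothelioma cells and were removed on day 8. Renca tumours arose from kidney cancer cells and were removed on day 10. All tumours were taken before treatment, and each mouse was then classed by its response to antibodies against CTLA4 and PD-L1. Each line gave 12 responders and 12 non-responders. RNA came from whole tumours, so in these bulk samples fewer cells of a type and less RNA per cell cannot be told apart. The labels do not state that the 12 libraries of a group came from separate mice, and p-values measure the spread between libraries.

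A skeletal muscle fibre is one long multinucleate cell packed with sarcomeres, in which myosin thick filaments pull on actin thin filaments between Z-discs, with titin and nebulin as length-setting giants. Calcium leaves the sarcoplasmic reticulum through the ryanodine receptor, binds troponin C, and is pumped back by SERCA, while creatine kinase, phosphorylase and enolase supply ATP. Fast and slow fibres use different isoforms of myosin and of each troponin, and developing or regenerating fibres use further isoforms. Subcutaneous tumours can lie against the thin muscle of the skin or of the body wall.

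Library totals ran between 16.4 M and 27.8 M counts. Levels are given in CPM, counts per 1000000 of the library scaled over all 48 libraries, and a count of 0 was compatible with up to 3 counts, or 0.109 to 0.175 CPM depending on the library. Several libraries stood apart by their muscle genes and are named with each result they touch. AB1 non-responder 9 and Renca responder 11 had the lowest muscle sums of their groups, AB1 non-responders 2 and 3 had the highest of theirs, and AB1 non-responder 2 had by far the most slow myosin of its group. AB1 non-responder 3 also had the highest summed level of 7 skin genes of the 48 libraries, 491 CPM against a group median of 13.1 CPM. AB1 non-responder 7 stood high as well, with 395 CPM of skin genes. AB1 non-responder 3 was likewise the highest of its group for the summed fat (804 CPM, median 338), peripheral nerve (252 CPM, median 156), renal tubule (829 CPM, median 497) and mesothelium (8.81 CPM, median 1.54) genes. Its RNA purity ratio (absorbance, from the labels) was 1.08, the lowest of the 48, followed by 1.51 in AB1 non-responder 12.

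The promoters of 3 genes on which the results turn are printed here, namely the most abundant gene per base of exon (Acta1), the myosin with the widest range (Myh4), and the gene whose response difference in AB1 held in the most alternatives (Tnnc1). Each window runs from 250 bases before to 50 bases after the RefSeq gene start, on GRCm38.p6, 5′ to 3′ on the gene's strand, and 28 of 39 genes matched the RefSeq table. Capitals mark matches to the E box (CANNTG, the site of MyoD-family regulators), the MEF2 box and the CArG box (the site of serum response factor). Acta1 lies at chr8:123894726-123895025 on the minus strand, Myh4 at chr11:67237562-67237861 on the plus strand, and Tnnc1 at chr14:31208062-31208361 on the plus strand.
Acta1 promoter: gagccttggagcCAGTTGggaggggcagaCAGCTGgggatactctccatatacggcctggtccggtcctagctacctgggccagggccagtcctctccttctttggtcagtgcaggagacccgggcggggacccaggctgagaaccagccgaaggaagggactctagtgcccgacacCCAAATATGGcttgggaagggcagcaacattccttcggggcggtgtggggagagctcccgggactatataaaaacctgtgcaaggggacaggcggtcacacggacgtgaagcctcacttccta
Myh4 promoter: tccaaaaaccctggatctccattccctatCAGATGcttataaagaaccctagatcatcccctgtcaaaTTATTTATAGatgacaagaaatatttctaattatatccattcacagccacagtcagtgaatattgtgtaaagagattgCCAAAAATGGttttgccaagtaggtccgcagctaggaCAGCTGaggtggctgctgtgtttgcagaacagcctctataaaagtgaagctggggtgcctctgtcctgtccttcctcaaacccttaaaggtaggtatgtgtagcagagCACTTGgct
Tnnc1 promoter: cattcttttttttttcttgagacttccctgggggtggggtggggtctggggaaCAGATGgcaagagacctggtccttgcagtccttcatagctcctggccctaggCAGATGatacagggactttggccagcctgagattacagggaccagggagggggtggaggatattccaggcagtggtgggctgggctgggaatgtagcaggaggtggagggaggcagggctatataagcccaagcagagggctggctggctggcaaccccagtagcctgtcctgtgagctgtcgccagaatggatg

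The Acta1 window held 2 E boxes and a CArG box, the Myh4 window held 3 E boxes, a MEF2 box and a CArG box, and the Tnnc1 window held 2 E boxes. On either strand, an E box was found for 24 of 28 genes (85.7%), against 75.0% of the 27025 genes with a window. A gene with several windows was counted once, if any of them held a match. The E box with the letters CAGCTG was found for 14 of 28 genes (50%) against 18.3% of all genes. The MEF2 box was found for 5 (17.9%) against 3.70%, and the CArG box for 3 (10.7%) against 1.81%. The CAGCTG matches are a subset of the E box matches. A match describes letters in the window and not a bound site. In GENCODE M21 on GRCm38 the genes span chr8:123891769-123894751 (Acta1), chr11:67238029-67260446 (Myh4) and chr14:31208312-31211729 (Tnnc1).

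Acta1, the skeletal alpha-actin of the thin filament, had the highest level per kilobase of exon of the 39 genes, with a median over 48 libraries of 186 CPM per kb. Next came Mylpf, the regulatory light chain of fast myosin, at 47.0 CPM per kb, and Tnnt3, fast troponin T, at 36.8 CPM per kb. Desmin (Des), the intermediate filament that ties Z-discs together, had 34.9 CPM per kb and Eno3, muscle enolase, 33.5 CPM per kb. The myosin heavy chain Myh4, of the fastest mouse fibres, had 25.6 CPM per kb. At the other end lay Myl2, Myl3 and the slow heavy chain Myh7, which took the last ranks. The adult muscle genes present were thus mainly those of fast fibres.

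Among the 4 adult heavy chains, compared per kb of exon, Myh4 made up a median of 56.2% of the total in responders and 56.5% in non-responders of AB1, and 40.8% in responders and 41.7% in non-responders of Renca. Myh1, the heavy chain of type 2X fibres, made up 28.9%, 27.9%, 39.3% and 36.9% in the same order of groups. Myh2, of type 2A fibres, made up 14.9%, 14.4%, 19.9% and 22.2%. Myh7 had a median share of at most 0.179% in any group. These differences between tumours in share were not tested. Myh2, Myh1 and Myh4 are neighbours on chromosome 11 with similar sequences, and Myh7 lies beside the near-identical cardiac gene Myh6, so counts may be split among them.

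The muscle genes varied between tumours of one group far more than other genes did. Their summed level was between 232 and 2867 CPM in AB1 responders (median 1353), against 98.5 and 5630 CPM in AB1 non-responders (median 1740). It was between 149 and 4295 CPM in Renca responders (median 2585), against 218 and 2910 CPM in Renca non-responders (median 1417). All 4 ranges overlapped widely. As a share of all counts the sum was at most 0.532%, in AB1 non-responder 3, and at least 0.00950%, in AB1 non-responder 9.

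**Figure D1:**
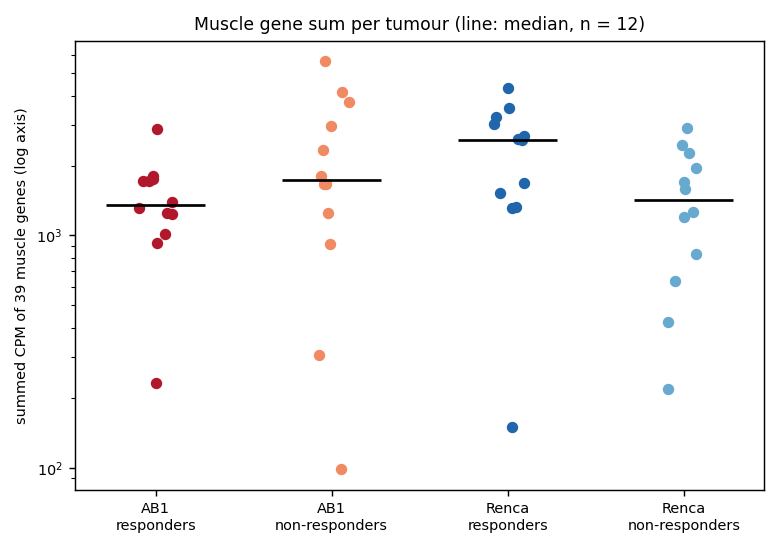
Summed CPM of the 39 muscle genes in each tumour, on a log axis, with the median of 12 tumours per group as a line. AB1 non-responders spread widest, between 98.5 and 5630 CPM, and all 4 groups overlap.

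The standard deviation of log2(CPM + 1) over the 12 libraries of a group had a median over the 37 tested genes of 0.857 in responders and 1.54 in non-responders of AB1, and of 1.28 in responders and 1.11 in non-responders of Renca. Over 16509 genes the same medians were 0.173, 0.175, 0.143 and 0.130. All 37 muscle genes were above the median of all genes in each group. Of the 37, 33 were in the top 5% of all genes by spread in responders and 37 in non-responders of AB1, and 35 in each class of Renca. The median ratio of the highest to the lowest library, over genes counted in every library of the group, was 14.6-fold in responders (38 genes) and 154-fold in non-responders (37 genes) of AB1, and 47.7-fold in responders (33 genes) and 20.2-fold in non-responders (38 genes) of Renca.

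Most of the genes were high and low in the same libraries. In AB1 responders the library with the highest sum, replicate 12, was the highest for 35 of 39 genes, and that with the lowest sum, replicate 1, was the lowest for 36. In AB1 non-responders replicate 9 was the lowest for 36 genes, while replicate 3 was the highest for 26. In Renca responders replicate 11 was the lowest for 36 genes and replicate 7 the highest for 28. In Renca non-responders replicate 4 was the lowest for 34 genes and replicate 7 the highest for 27. Spearman's rho between a gene and the sum of the others had a median over genes of 0.860, 0.965, 0.944 and 0.979 in the 4 groups in the same order, over 12 libraries each, as a description. The lowest rho in each group was 0.0435 (Myl3), -0.210 (Myl2), -0.140 (Myl3) and -0.105 (Myl2). Tnnc1, Tnni1 and Tnnt1 followed the sum less closely in AB1. Their rho was 0.357, 0.399 and 0.448 in AB1 responders, and 0.476, 0.483 and 0.524 in AB1 non-responders.

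**Figure D2:**
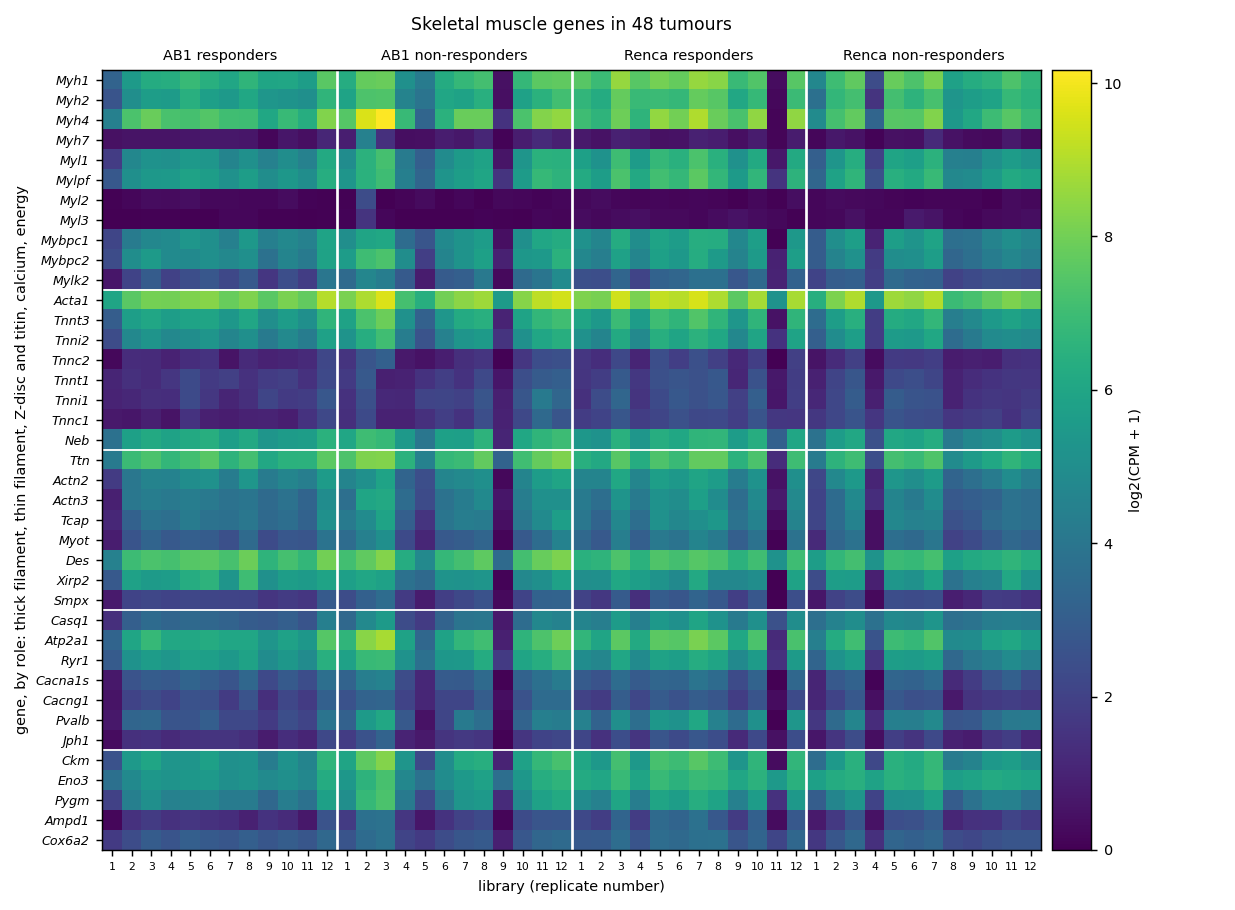
Level of each of the 39 muscle genes as log2(CPM + 1) in each of 48 tumours, with genes in rows ordered by role and libraries in columns ordered by group. Dark columns mark AB1 responder 1, AB1 non-responders 5 and 9, Renca responder 11 and Renca non-responder 4, and the Myh7, Myl2 and Myl3 rows are dark except in AB1 non-responder 2.

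A second list of 38 skeletal muscle genes that are not among the 39 followed the same libraries. Pearson's r between the 2 summed levels, both as log2(CPM + 1), was between 0.957 and 0.993 in the 4 groups of 12, and Spearman's rho was between 0.965 and 1 (permutation test, the smallest adjusted p 8e-05 for r and 0.000107 for rho over 32 relations, from an unadjusted p of 1e-05 that is the smallest that 100000 resamples can give). Both lists were chosen for the same tissue and measured in the same libraries. The second sum varied less, between 4.50-fold and 7.55-fold from lowest to highest library of a group, against 12.4-fold to 57.2-fold for the 39 genes. Whether all counts of the second list came from muscle was not tested. The relation with fat genes passed in AB1 responders (r = 0.851, permutation adjusted p = 0.0064; rho = 0.657, adjusted p = 0.086; r = 0.706 without the 2 farthest libraries). It also passed in AB1 non-responders (r = 0.731, permutation adjusted p = 0.0381; rho = 0.741, adjusted p = 0.0498; r = 0.594 without the 2 farthest). In Renca the permutation adjusted p of r was 0.451 in responders and 0.900 in non-responders.

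The library total was related to the muscle sum in AB1 non-responders (r = -0.859, permutation adjusted p = 0.00859), but rho was -0.678 with an adjusted p of 0.0747 and r was -0.447 without the 2 farthest libraries, so the relation rests on those libraries. Smooth muscle, skin, peripheral nerve and leukocyte sums and the RNA purity ratio gave no relation past the threshold in any group, with smallest adjusted p between 0.169 and 0.546 for r by permutation. For rho the smallest permutation adjusted p was between 0.0572 and 0.924. The closest were peripheral nerve in AB1 non-responders (rho = 0.720, adjusted p = 0.0572) and smooth muscle in AB1 responders (rho = 0.678, adjusted p = 0.0747). For the RNA purity ratio in AB1 responders r was 0.059, and -0.852 without the 2 farthest libraries, so its value rests on those libraries. Each tumour line was sequenced on a pair of flow cells. Median sums on the first and second flow cell were 1399 and 1308 CPM in responders and 1662 and 1808 CPM in non-responders of AB1, and 2181 and 2585 CPM in responders and 1764 and 1229 CPM in non-responders of Renca.

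The first comparison asked whether AB1 tumours that later responded differed in muscle genes from those that did not. In AB1 responders 5 of 37 tested genes were lower and 0 higher, against 32.7% lower, 27.7% higher and 60.4% in either direction among all 15859 genes tested (edgeR quasi-likelihood test, Benjamini-Hochberg adjusted p at most 0.05). The share among muscle genes was thus below that of all genes. The 5 were Tnnc1, Myh7, Mylk2, Ampd1 and Pvalb. The fitted log2 fold change, responders over non-responders, was negative for 36 of 37 genes with a median of -0.66, against -0.04 over all genes. Since most of the genes follow the same libraries, these signs are not separate observations.

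**Figure D3:**
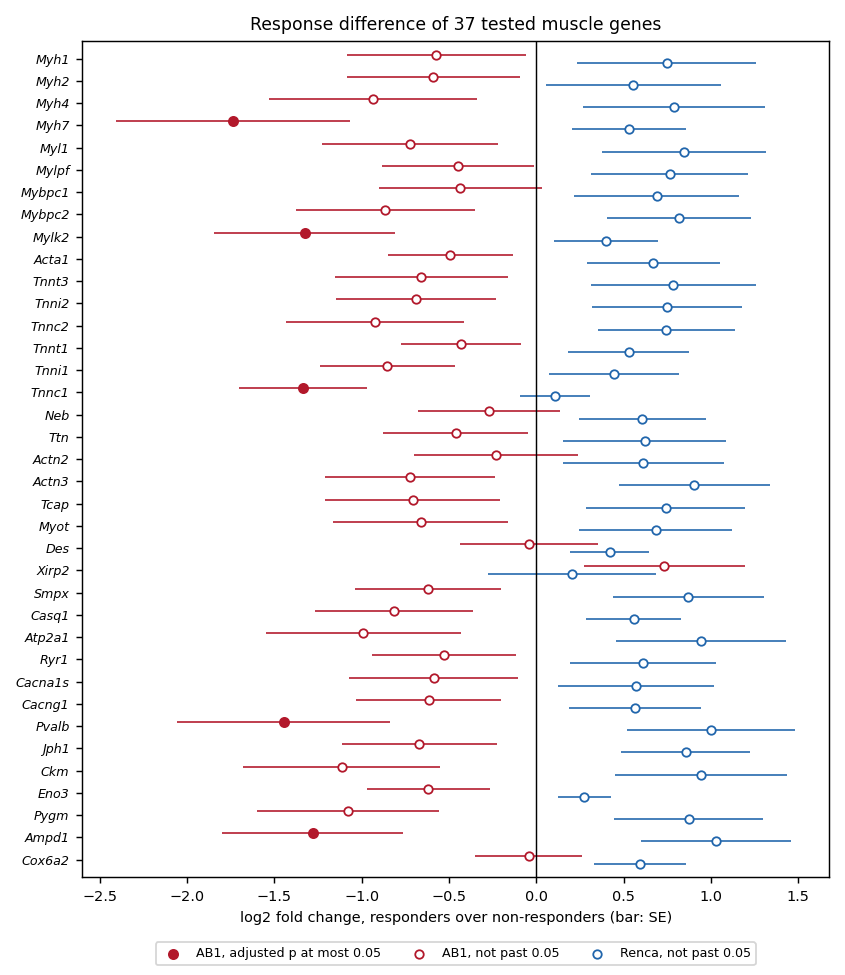
Fitted log2 fold change of responders over non-responders (± SE) for the 37 tested muscle genes, AB1 in red and Renca in blue, with filled points where the adjusted p was at most 0.05. In AB1 the values lie left of 0 except for Xirp2 at 0.73, and 5 pass; in Renca they lie right of 0 and 0 pass.

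Tnnc1, the troponin C of slow and cardiac muscle, which binds the calcium that starts contraction, had 0.454, 0.859 and 3.67 CPM (lowest, median and highest of 12) in AB1 responders, against 0.967, 2.25 and 10.2 CPM in AB1 non-responders. Of the responders, 7 of 12 lay below every non-responder, though the ranges overlapped. The log2 fold change was -1.34 ± 0.37 (SE; edgeR adjusted p = 0.00323). It passed in each of 24 fits that left out 1 library, with values between -1.58 and -1.08.

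Myh7, the slow and cardiac heavy chain, had 0.136, 0.495 and 1.11 CPM in AB1 responders, against 0.0752, 0.782 and 21.0 CPM in AB1 non-responders. The highest value was in AB1 non-responder 2, and the next highest of all 48 libraries was 1.67 CPM. The fold change was -1.74 ± 0.67 on the log2 scale (SE; edgeR adjusted p = 0.0289), and -0.57 with an adjusted p of 0.156 without AB1 non-responder 2. The call therefore depended on that library.

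Mylk2, the kinase that phosphorylates the fast light chain, had 0.546, 3.998 and 15.04 CPM in AB1 responders, against 0.188, 10.4 and 28.9 CPM in AB1 non-responders. The log2 fold change was -1.33 ± 0.52 (SE; edgeR adjusted p = 0.0306), and 11 of 12 responders lay below the median of non-responders. It was lost in 3 of 24 fits without 1 library, with an adjusted p of up to 0.0706 without AB1 non-responder 12.

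Ampd1, the muscle AMP deaminase, had 0.126, 1.74 and 5.03 CPM in AB1 responders, against 0.113, 3.42 and 13.4 CPM in AB1 non-responders (log2 fold change -1.28 ± 0.52 SE; edgeR adjusted p = 0.0365). Pvalb, the calcium buffer of fast fibres, had 0.588, 4.81 and 14.2 CPM in AB1 responders, against 0.150, 10.2 and 68.1 CPM in AB1 non-responders (log2 fold change -1.45 ± 0.61 SE; edgeR adjusted p = 0.0442). For each, 11 of 12 responders lay below the median of non-responders while the ranges overlapped. Ampd1 was lost in 11 of 24 fits without 1 library and Pvalb in 16, with the largest adjusted p, 0.0745 and 0.104, without AB1 non-responder 3.

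With replicate number as a block, since same-numbered tumours shared a sequencing lane, 1 of 37 genes passed in AB1. The share of all genes passing in this fit is not given here, so the fall from 5 need not be particular to these genes. Tnnc1 had a log2 fold change of -1.28 and an edgeR adjusted p of 0.00133 in that fit. The block ended the calls of Myh7 (-0.91, adjusted p = 0.122), Mylk2 (-1.08, adjusted p = 0.0798), Ampd1 (-1.07, adjusted p = 0.108) and Pvalb (-0.97, adjusted p = 0.181). By limma-trend, Tnnc1 alone of the 5 passed. Within a flow cell, Myh7 passed on the first alone and Tnnc1 on the second alone.

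The abundant sarcomere genes did not pass in AB1. Acta1 had 62.1, 257 and 522 CPM in responders, against 45.6, 327 and 788 CPM in non-responders (log2 fold change -0.49 ± 0.36 SE; edgeR adjusted p = 0.242). Myh4 had 20.4, 139 and 305 CPM in responders, against 1.84, 203 and 1156 CPM in non-responders (-0.94 ± 0.60; edgeR adjusted p = 0.180). The ranges of all 39 genes overlapped between the groups, and for both genes the extremes lay in non-responders.

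The other fast heavy chains and light chains did not pass in AB1. Myh1 had 8.36, 70.6 and 191 CPM in AB1 responders, against 0.376, 109 and 231 CPM in AB1 non-responders. Myh2 had 5.29, 45.9 and 99.2 CPM in responders, against 0.339, 61.7 and 163 CPM in non-responders. The light chains followed the same pattern of lower medians in responders, with the widest extremes in non-responders. Mylpf had 5.92, 41.2 and 79.6 CPM in responders, against 1.92, 48.5 and 127 CPM in non-responders. Myl1, the alkali light chain of fast myosin, had 2.48, 32.0 and 70.7 CPM in responders, against 0.489, 42.3 and 143 CPM in non-responders.

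Of the thin filament genes in AB1, 1 of 8 was lower and 7 did not pass. Tnnt3 had 7.01, 50.1 and 99.9 CPM in AB1 responders, against 1.02, 66.0 and 239 CPM in AB1 non-responders. Its slow counterpart Tnnt1 had 1.09, 2.18 and 3.92 CPM in responders, against 0.527, 2.52 and 7.49 CPM in non-responders. Tnni1 had 1.01, 1.87 and 5.73 CPM in responders, against 0.865, 3.26 and 16.7 CPM in non-responders (log2 fold change -0.85 ± 0.39 SE; edgeR adjusted p = 0.0597), and it passed by DESeq2. Neb, the nebulin ruler of the thin filament, had 13.0, 55.7 and 90.0 CPM in responders, against 1.09, 64.9 and 127 CPM in non-responders.

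Of calcium-handling genes 1 of 7 was lower and 6 did not pass. Atp2a1, the SERCA pump of fast fibres, had 8.69, 64.3 and 177 CPM in AB1 responders, against 0.865, 102 and 461 CPM in AB1 non-responders (log2 fold change -0.99 ± 0.56 SE; edgeR adjusted p = 0.129). Ryr1, the calcium release channel, had 6.68, 41.9 and 85.6 CPM in responders, against 2.29, 58.4 and 126 CPM in non-responders (-0.53 ± 0.41; edgeR adjusted p = 0.278). Casq1, the calcium store of the reticulum, had 1.60, 7.94 and 19.8 CPM in responders, against 0.677, 12.5 and 45.5 CPM in non-responders (-0.81 ± 0.45; edgeR adjusted p = 0.124).

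Of energy genes 1 of 5 was lower. Ckm, the muscle creatine kinase, had 4.96, 36.9 and 99.9 CPM in AB1 responders, against 1.02, 67.2 and 316 CPM in AB1 non-responders (log2 fold change -1.12 ± 0.56 SE; edgeR adjusted p = 0.0914). Cox6a2, a heart and muscle subunit of cytochrome c oxidase, had 2.31, 6.04 and 9.89 CPM in responders, against 0.865, 5.66 and 13.2 CPM in non-responders and did not pass.

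Of the Z-disc and titin genes 0 of 8 passed. Ttn, the giant spring of the sarcomere, had 16.9, 113 and 193 CPM in AB1 responders, against 8.54, 146 and 301 CPM in AB1 non-responders (log2 fold change -0.46 ± 0.42 SE; edgeR adjusted p = 0.349). Des had 20.9, 146 and 256 CPM in responders, against 10.3, 139 and 315 CPM in non-responders. Xirp2, an actin-binding protein of the muscle-tendon and intercalated junctions, was the sole gene with a positive value, 0.73 ± 0.46 (SE; edgeR adjusted p = 0.175). It had 6.17, 48.8 and 130 CPM in responders, against 0.0752, 35.7 and 63.2 CPM in non-responders, and 3 responders lay above every non-responder.

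Further skeletal muscle genes and myogenic and junction genes also gave few calls in AB1, against 60.4% of all genes in either direction. Of 38 further skeletal muscle genes 2 were lower, Cacna2d1 (log2 fold change -0.68 ± 0.08 SE; edgeR adjusted p = 5.59e-07) and Jph2 (-0.28 ± 0.07; edgeR adjusted p = 0.00269), and 36 did not pass. Cacna2d1 encodes an auxiliary calcium channel subunit and Jph2 a junctophilin best known in heart. Among 9 myogenic and junction genes, Chrna1, the alpha subunit of the muscle acetylcholine receptor, was lower (-1.26 ± 0.32; edgeR adjusted p = 0.00155), and Chrne, its adult epsilon subunit, was higher (0.90 ± 0.36; edgeR adjusted p = 0.0331). Chrne was lost in 7 of 24 fits without 1 library, with an adjusted p of up to 0.0691.

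Of 7 heart genes 2 were lower, Actc1, the cardiac actin that is also used by immature skeletal fibres (log2 fold change -1.04 ± 0.38 SE; edgeR adjusted p = 0.0216), and Myh6 (-1.41 ± 0.57; edgeR adjusted p = 0.0370). Myh6 was -0.54 with an adjusted p of 0.189 without AB1 non-responder 2, and its call was also lost with replicate number as a block (-0.88, edgeR adjusted p = 0.0811). Actc1 was lost without AB1 non-responder 11 (edgeR adjusted p = 0.0606). Mybpc3, cardiac myosin-binding protein C (1.21 ± 0.16; edgeR adjusted p = 1.90e-06), and Tnni3, cardiac troponin I (1.37 ± 0.20; edgeR adjusted p = 4.64e-06), were higher.

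Markers of other cell types were counted in the same AB1 fit, in which 60.4% of all genes passed in either direction. The summed level of 9 leukocyte genes was between 2654 and 5798 CPM in responders (median 4375), against 1516 and 2683 CPM in non-responders (median 2029), and 9 of 9 were higher. Of 7 tested smooth muscle genes 5 were lower and 2 did not pass, and the sum over 8 such genes was between 99.2 and 174 CPM in responders, against 154 and 209 CPM in non-responders. Of 4 skin genes 4 were lower, of 9 fat genes 2 were higher and 1 lower, and of 7 nerve genes 3 were higher and 2 lower. Their part in the muscle values was not tested.

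The next comparison put the same question in Renca. Of 37 tested genes 0 passed, against 19.6% of 15778 genes, 11.1% higher and 8.52% lower (edgeR quasi-likelihood test, Benjamini-Hochberg adjusted p at most 0.05). At an unadjusted p under 0.05 there were 5 of 37 by edgeR, a limit that at least 19.6% of all genes also met. At the adjusted threshold DESeq2 and limma-trend also called 0. All 37 fitted log2 fold changes, responders over non-responders, were positive, with a median of 0.68 against -0.01 over all genes.

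Ampd1 had the smallest p, with 0.269, 5.93 and 12.8 CPM in Renca responders, against 0.422, 2.27 and 6.90 CPM in Renca non-responders (log2 fold change 1.03 ± 0.43 SE; edgeR adjusted p = 0.0946). Of the responders 5 lay above every non-responder and 1, replicate 11, below every one. Jph1, which couples the surface membrane to the reticulum, had 0.377, 3.84 and 5.86 CPM in responders, against 0.296, 1.93 and 4.10 CPM in non-responders (0.86 ± 0.37; edgeR adjusted p = 0.103). Cox6a2 had 3.39, 9.08 and 12.8 CPM in responders, against 1.69, 5.42 and 9.90 CPM in non-responders (0.60 ± 0.26; edgeR adjusted p = 0.111).

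With replicate number as a block 2 of 37 genes passed in Renca, Ampd1 (log2 fold change 1.05, edgeR adjusted p = 0.0437) and Cox6a2 (0.65, adjusted p = 0.0210), both higher in responders. Without Renca responder 11, 4 genes passed. Without Renca non-responder 7 the count was 2, and without Renca non-responder 3 it was 1. The share of all genes passing in these fits is not given here, so the gains need not be particular to these genes.

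The abundant genes did not pass. Acta1 had 35.0, 452 and 744 CPM in Renca responders, against 42.2, 254 and 517 CPM in Renca non-responders (log2 fold change 0.67 ± 0.38 SE; edgeR adjusted p = 0.223). Myh4 had 0.108, 237 and 495 CPM in responders, against 8.91, 135 and 307 CPM in non-responders (0.79 ± 0.52; edgeR adjusted p = 0.303). For Acta1, 4 responders lay above every non-responder and replicate 11 below every one.

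Pvalb had 0, 26.7 and 65.5 CPM in Renca responders, against 1.48, 13.8 and 27.0 CPM in Renca non-responders (log2 fold change 1.003 ± 0.48 SE; edgeR adjusted p = 0.146). The count of 0, in Renca responder 11, allows up to 0.161 CPM. Ckm had 0.269, 101 and 183 CPM in responders, against 3.67, 43.2 and 107 CPM in non-responders (0.94 ± 0.49; edgeR adjusted p = 0.182).

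Atp2a1 (log2 fold change 0.95 ± 0.49 SE; edgeR adjusted p = 0.174), Casq1 (0.56 ± 0.27; edgeR adjusted p = 0.151), Ryr1 (0.61 ± 0.42; edgeR adjusted p = 0.321) and Ttn (0.62 ± 0.47; edgeR adjusted p = 0.368) did not pass in Renca. Tnnc1, which differed in AB1, had 2.02, 3.24 and 5.58 CPM in Renca responders, against 1.80, 2.90 and 5.30 CPM in Renca non-responders. Its log2 fold change of 0.11 ± 0.20 (SE; edgeR adjusted p = 0.746) was the lowest of the 37.

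The other contractile genes had higher medians in Renca responders than in Renca non-responders without passing. Myh1 had 0.269, 185 and 383 CPM in responders, against 4.10, 115 and 275 CPM in non-responders, and Mylpf 1.88, 98.9 and 194 CPM in responders, against 4.77, 59.1 and 114 CPM in non-responders. Tnnt3 had 0.430, 100 and 169 CPM in responders, against 2.62, 47.4 and 105 CPM in non-responders. Xirp2 was an exception in its median, with 0, 32.1 and 69.6 CPM in responders, against 0.844, 34.8 and 67.7 CPM in non-responders. Responder 11 had the lowest value for each of these 4 genes.

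Of 38 further skeletal muscle genes 0 passed in Renca. Of 8 myogenic and junction genes 1 was lower, Chrnb1, a receptor subunit (log2 fold change -0.16 ± 0.06 SE; edgeR adjusted p = 0.0474), and of 6 heart genes 1 was higher, Tnni3 (0.65 ± 0.21; edgeR adjusted p = 0.0341). Chrnb1 was lost in 19 of 24 fits without 1 library, with an adjusted p of up to 0.0974. Tnni3 was lost in 9 of 24, with an adjusted p of up to 0.0661, and with replicate number as a block (0.62, edgeR adjusted p = 0.0712). Beside the 19.6% of all genes that passed in this fit, 9 of 9 leukocyte genes were higher, with sums between 1983 and 3121 CPM in responders (median 2379), against 1546 and 2421 CPM in non-responders (median 1785). Of 7 smooth muscle genes 2 were lower, and of 9 fat genes 1 was higher and 1 lower. Of 5 skin genes 0 passed and of 7 nerve genes 2 were higher. Their part in the muscle values was not tested.

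The difference between the 2 response effects was tested directly, in 1 fit over 48 libraries. For 12 of 37 genes the effect in AB1 was lower than that in Renca and for 0 higher, against 18.6% lower, 22.9% higher and 41.6% in either direction among 16920 genes (edgeR interaction term, Benjamini-Hochberg adjusted p at most 0.05). The median difference was -1.34 on the log2 scale, against 0.00 over all genes. The 12 included 4 of 7 calcium genes (Pvalb, Jph1, Casq1 and Atp2a1), 3 of 5 energy genes (Ampd1, Pygm and Ckm), 3 of 9 thick filament genes (Myh7, Mylk2 and Mybpc2), 2 of 8 thin filament genes (Tnnc1 and Tnnc2) and 0 of 8 Z-disc and titin genes. The count was 6 without AB1 non-responder 2, 7 without AB1 non-responder 3 and 19 without Renca responder 11, in fits chosen after the data were seen.

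Tnnc1 had the smallest p, with an effect in AB1 lower than that in Renca by a log2 difference of -1.42 ± 0.42 (SE; edgeR adjusted p = 0.00567). The values for Ampd1 were -2.28 ± 0.69 (edgeR adjusted p = 0.00728) and for Pvalb -2.42 ± 0.80 (edgeR adjusted p = 0.0136). Pygm, the muscle glycogen phosphorylase, had -1.92 ± 0.69 (edgeR adjusted p = 0.0228) and Mybpc2, fast myosin-binding protein C, -1.65 ± 0.68 (edgeR adjusted p = 0.0464). The value for Myh7, -2.26, was -1.07 without AB1 non-responder 2 and no longer passed (edgeR adjusted p = 0.0724).

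With replicate number as a block 4 of 37 passed, namely Tnnc1, Ampd1, Pvalb and Jph1, and the other 8 calls were lost, with Myh7 at -1.52 (edgeR adjusted p = 0.0544), Mylk2 at -1.39 (adjusted p = 0.0526), Pygm at -1.61 (adjusted p = 0.0588) and Tnnc2 at -1.36 (adjusted p = 0.0803). Ckm had -1.70 (adjusted p = 0.101), Atp2a1 -1.63 (adjusted p = 0.1199), Mybpc2 -1.36 (adjusted p = 0.124) and Casq1 -0.94 (adjusted p = 0.150) in the same block fit. By limma-trend only Tnnc1 passed. The share of all genes passing in either of these fits is not given here, so the fall need not be particular to these genes. Tnnc2, fast troponin C, overlaps the oppositely oriented gene Ube2c over most of its exons, and whether counting used strand is not given in the sources used here. Exons of 19 of the 39 genes overlapped another annotated gene, on the other strand in each case.

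The tumour lines were then set against each other. In AB1 tumours 2 of 37 genes were higher and 3 lower than in Renca tumours, against 42.2% higher, 39.3% lower and 81.4% in either direction of 16258 genes (edgeR quasi-likelihood test with response as a term, adjusted p at most 0.05). The median log2 fold change, AB1 over Renca, was -0.11 against 0.03 over all genes. Tumour line, day of removal and flow cell cannot be told apart here.

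Casq1 had 0.677, 9.29 and 45.5 CPM (lowest, median and highest of 24) in AB1 tumours, against 4.73, 22.6 and 60.4 CPM in Renca tumours (log2 fold change -1.14 ± 0.29 SE; edgeR adjusted p = 0.000343). Of the AB1 tumours 21 of 24 lay below the Renca median. Eno3 had 11.8, 38.6 and 147 CPM in AB1 tumours, against 43.9, 73.9 and 118 CPM in Renca tumours (-0.78 ± 0.20; edgeR adjusted p = 0.000541), and 17 AB1 tumours lay below every Renca tumour. Tnnc1 had 0.454, 1.31 and 10.2 CPM in AB1 tumours, against 1.80, 3.06 and 5.58 CPM in Renca tumours (-0.75 ± 0.25; edgeR adjusted p = 0.00663). These 3 differences passed in responders alone, at -1.86 for Casq1, -1.25 for Eno3 and -1.54 for Tnnc1. In non-responders alone none of the 3 passed, with -0.45 for Casq1 (edgeR adjusted p = 0.314), -0.33 for Eno3 (adjusted p = 0.339) and -0.03 for Tnnc1 (adjusted p = 0.935).

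Des was higher in AB1, with 10.3, 144 and 315 CPM, against 35.1, 103 and 178 CPM in Renca (log2 fold change 0.54 ± 0.23 SE; edgeR adjusted p = 0.0292), and 9 AB1 tumours lay above every Renca tumour. The Des call was lost by limma-trend (0.33, adjusted p = 0.248), without AB1 non-responder 3 (0.47, edgeR adjusted p = 0.0554) and without the highest library of each group (0.49, edgeR adjusted p = 0.0540). It was also lost in responders alone (0.30, edgeR adjusted p = 0.298) and in non-responders alone (0.77, edgeR adjusted p = 0.0575). Myh7 was higher, 1.28 ± 0.46 (edgeR adjusted p = 0.00963), with 0.0752, 0.549 and 21.0 CPM in AB1 tumours, against 0.0844, 0.408 and 1.297 CPM in Renca tumours. Its value was 0.34 without AB1 non-responder 2 (edgeR adjusted p = 0.199), 0.35 by DESeq2 (adjusted p = 0.186) and 0.52 by limma-trend (adjusted p = 0.110), none past the threshold. It was -0.21 in responders alone, and with replicate number as a block its call was lost (0.71, edgeR adjusted p = 0.0767). The block brought Pvalb past the threshold (-1.10, edgeR adjusted p = 0.0305), where the fit without it had -0.91 ± 0.47 (edgeR adjusted p = 0.0715). In this comparison the block joined tumours of the same number across both lines, which shared no flow cell or day of removal. Neither change under the block is therefore a check on the design. Acta1 (-0.11 ± 0.28; edgeR adjusted p = 0.712) and Myh4 (0.24 ± 0.44; edgeR adjusted p = 0.620) did not pass. Among responders alone 19 of 37 genes passed, against 77.1% of all genes in that fit, and among non-responders alone 4, against 76.4%. Of those 4, Mybpc2, Myh7, Mylk2 and Ryr1, only Myh7 was among the 5 called over all tumours. Without Renca responder 11 the count of 5 became 8.

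Casq1, Eno3 and Tnnc1 were still counted in Renca tumours with little Myh4. Renca responder 11 had 0.108 CPM of Myh4 and 4.73 CPM of Casq1, 43.9 CPM of Eno3 and 2.10 CPM of Tnnc1, while Renca non-responder 4 had 8.91 CPM of Myh4, 13.0 CPM of Casq1, 56.5 CPM of Eno3 and 2.03 CPM of Tnnc1. The AB1 tumours with least Myh4 had lower values. AB1 non-responder 9 had 1.84 CPM of Myh4, 0.677 CPM of Casq1, 11.8 CPM of Eno3 and 0.978 CPM of Tnnc1, and AB1 non-responder 5 had 9.03 CPM of Myh4, 2.39 CPM of Casq1, 12.8 CPM of Eno3 and 1.67 CPM of Tnnc1. Des, though higher in AB1 over all tumours, was 35.1 and 36.5 CPM in these Renca tumours, against 10.3 and 26.6 CPM in these AB1 tumours. Acta1 went the other way, with 35.0 and 42.2 CPM in the Renca tumours, against 45.6 and 83.4 CPM in the AB1 tumours.

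**Figure D4:**
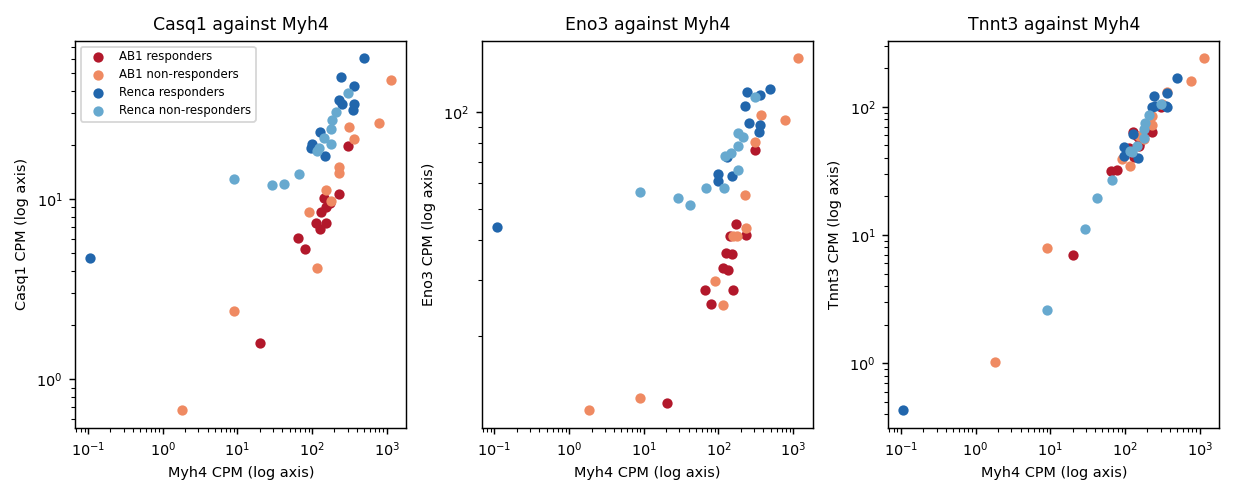
Level of Casq1, Eno3 and Tnnt3 against that of Myh4 in each of 48 tumours, both axes in CPM on a log scale. Among tumours with little Myh4, those of Renca have more Casq1 and Eno3 than those of AB1 (43.9 CPM of Eno3 in Renca responder 11, 11.8 CPM in AB1 non-responder 9), while Tnnt3 is low wherever Myh4 is low.

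The fit of AB1 against Renca called 42.2% of all genes higher and 39.3% lower. Of 38 further skeletal muscle genes 5 were higher and 4 lower in AB1 than in Renca. Those of smallest p were Jph2 (log2 fold change 2.40 ± 0.11 SE; edgeR adjusted p = 1.36e-24), Cacna2d1 (1.56 ± 0.10; edgeR adjusted p = 6.20e-20) and Ankrd23, an ankyrin-repeat protein of the titin region (-1.78 ± 0.12; edgeR adjusted p = 1.91e-18).

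Slow and immature genes set single AB1 non-responders apart. AB1 non-responder 2 had the highest level of the 48 libraries for Myh7, 21.0 CPM against at most 1.67 CPM elsewhere, for Myl2, 4.16 CPM against at most 0.311 CPM elsewhere, and for Myl3, 1.91 CPM against at most 0.668 CPM elsewhere. It also had 10.4 CPM of Myh6, against at most 1.53 CPM elsewhere. In the same tumour Myh4 was 778 CPM, the second highest of all. Slow myosin genes and the fast heavy chain Myh4 were thus both high there. Its slow troponins were not the highest, with 4.63 CPM of Tnni1, 3.86 CPM of Tnnc1 and 6.11 CPM of Tnnt1. Other AB1 non-responders had up to 16.7, 10.2 and 7.49 CPM of these genes.

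AB1 non-responder 3 had the most Myh4 (1156 CPM) but 1.25 CPM of Tnni1, slow troponin I, and 0.973 CPM of Tnnc1, both below the medians of its group. AB1 non-responder 11 had 16.7 CPM of Tnni1 and 10.2 CPM of Tnnc1, the highest of the 48 libraries for both. It also had the highest Tnnt2, a troponin T of heart and of immature fibres (27.8 CPM, against a median of 4.84 CPM over 48), Actc1 (9.39 CPM, median 1.29), Chrng, the fetal receptor subunit (4.48 CPM, median 0.440), Myog, the differentiation factor myogenin (9.77 CPM, median 1.60), and Myh3, the embryonic heavy chain (25.7 CPM, median 4.76). AB1 non-responder 12 was the next highest for Tnni1, Tnnt2, Actc1, Chrng, Chrna1 and Myog. Myh8, the perinatal heavy chain, went otherwise. It was highest in AB1 non-responder 3 (134 CPM), with 121 CPM in Renca responder 7 and 107 CPM in AB1 non-responder 11.

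**Figure D5:**
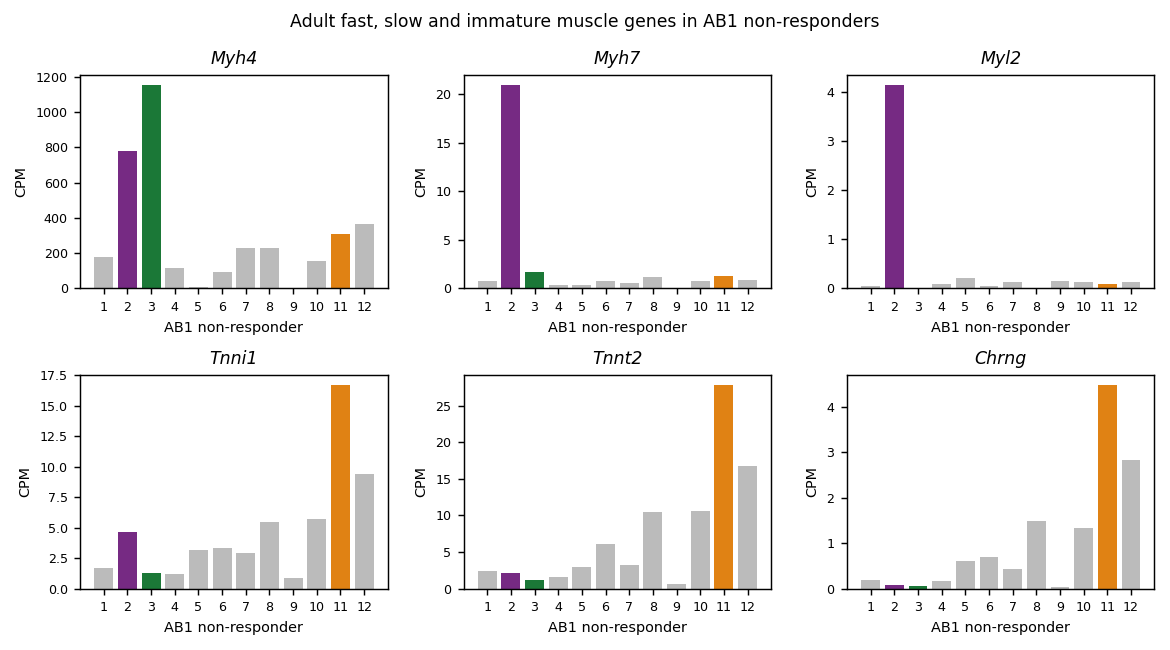
CPM of an adult fast gene (Myh4), slow genes (Myh7, Myl2, Tnni1) and genes of immature fibres (Tnnt2, Chrng) in the 12 AB1 non-responders, on linear axes from 0, with replicates 2, 3 and 11 in purple, green and orange. Myh7 and Myl2 peak in replicate 2, Myh4 in replicate 3, and Tnni1, Tnnt2 and Chrng in replicate 11.

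Fast-to-slow ratios of 4 isoform pairs gave no difference past the threshold in 12 comparisons (two-sided permutation test, 100000 resamples). The smallest p was for Tnnc2 to Tnnc1, whose log2 ratio averaged -0.26 ± 1.33 in AB1 tumours and -1.08 ± 1.19 in Renca tumours (SD, n = 24 each), a difference of 0.83 with a permutation p of 0.0209 and an adjusted p of 0.251. Means below 0 stand for more slow than fast troponin C, unlike the other pairs, whose means were above 0. Tnnc2 overlaps Ube2c and Tnnc1 was still counted in Renca tumours with little Myh4, so this ratio need not follow fibre type. For Myh4 to Myh7 the log2 ratio averaged 7.88 ± 0.80 in responders and 7.21 ± 1.70 in non-responders of AB1 (SD, n = 12 each; permutation adjusted p = 0.896). It averaged 7.73 ± 2.55 in responders and 7.99 ± 0.91 in non-responders of Renca (SD, n = 12 each; permutation adjusted p = 0.896). For Tnnt3 to Tnnt1 it averaged 4.31 ± 0.76 in responders and 4.24 ± 1.72 in non-responders of AB1 (SD, n = 12 each; permutation adjusted p = 0.896), and Tnnt3 to Tnnt1 was highest, 8.01, in AB1 non-responder 3 and lowest, -0.42, in Renca responder 11.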

How the data were processed

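RNA from 48 whole tumours was sequenced, and the authors deposited 1 table of read counts per gene and library. Per the submitters' processing notes, the tools were HISAT2 (version 2.0.4), StringTie (version 1.3.0) and bcl2fastq (version 2.18.0.12). Those notes name human genome builds for these mouse data, and the counting tool is not given in the sources used here, nor are the mouse build, annotation and strand setting. Groups came from the labels.

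The counts were tested with edgeR 4.0.16 (R 4.3.3; TMM scaling, filterByExpr, quasi-likelihood F test), with flow cell as a term within tumours and response as the term between them, and Benjamini-Hochberg adjustment over all tested genes at 0.05. The filter kept 15859, 15778, 16258 and 16920 genes in the 4 comparisons. CPM used TMM factors over all 48 libraries (0.945 to 1.05). Library totals of 16.4 M to 27.8 M counts set the precision, and floors of 3 counts cover counting error only. DESeq2 1.42.0 and limma 3.58.1 were alternatives. The fits were checked on simulated counts. Isoform ratios used counts plus 1. Coordinates and exon lengths came from GENCODE M21 (GRCm38), which matched all 39 genes, and promoters from RefSeq GRCm38.p6.

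The labels give each responder and the non-responder of the same number 1 lane, in 12 of 12 pairs of either tumour line, and replicate number was therefore used as a block. Correlations of their deviations ran between -0.08 and 0.49 in AB1 and between -0.12 and 0.25 in Renca.

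The members, lists and tests were chosen with earlier results of these data known. Genes named in full were those past the threshold plus a fixed panel of sarcomere, calcium and energy genes. The same rule named, from each other list, the 3 genes of smallest p past the threshold. Here that was done for muscle and heart lists in the response comparisons and for the further skeletal muscle list between tumour lines, and the other lists are given by counts. Libraries that set slow and immature genes apart, and the genes given at low Myh4, were chosen after their values were seen. So were the fits of both tumour lines without AB1 non-responders 2 or 3 or Renca responder 11.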

Additional observations from a re-analysis of the deposited data

Results flagged for a closer look

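For 12 genes the response effect differed between the tumour lines by the edgeR interaction term, with the effect in AB1 lower than that in Renca. On the log2 scale the difference, AB1 minus Renca, was -1.42 for Tnnc1, -2.28 for Ampd1, -2.42 for Pvalb, -2.26 for Myh7, -1.70 for Mylk2 and -1.92 for Pygm. Without AB1 non-responder 2, Myh7 was -1.07 and did not pass (edgeR adjusted p = 0.0724). With all libraries the difference was -2.03 for Ckm, -1.49 for Jph1, -1.34 for Casq1, -1.91 for Atp2a1, -1.63 for Tnnc2 and -1.65 for Mybpc2. In Renca alone, without a replicate block and with all 24 libraries, none of the 12 genes passed by edgeR, DESeq2 or limma-trend. In that edgeR fit 5 of the 37 tested had an unadjusted p under 0.05, as did at least 19.6% of all genes. With the replicate block Ampd1 passed there (edgeR adjusted p = 0.0437), and without Renca responder 11 Ampd1, Casq1, Jph1 and Pvalb passed.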

How the results depend on the processing

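In AB1 the count of 5 genes lower in responders became 3 with no filter on low counts, 1 by limma-trend, 1 with the replicate block, 1 on the first flow cell alone and 1 on the second. Leaving out 1 library gave between 1 and 11. It was 1 without non-responder 2 or responder 4, 2 without responders 1 or 2 or non-responder 12, 3 without responders 3, 5, 8, 10 or 11 or non-responder 11, 8 without responder 12 and 11 without non-responder 9. In Renca the count of 0 became 2 with the replicate block and ran between 0 and 4 when 1 library was left out. Between tumour lines 5 became 3 by limma-trend, 19 in responders alone and 4 in non-responders alone, of which only Myh7 was among the 5, and between 5 and 8 without single libraries. For the difference of effects 12 became 1 by limma-trend, 4 with the replicate block and between 6 and 19 without single libraries (AB1 non-responders 2 or 3 or Renca responder 11, chosen after seeing the data). The block changed no call among the isoform ratios (0 of 8 passed). The cause of these shifts was not tested. Except for responders alone and non-responders alone between tumour lines, the share of all genes passing in the same fit is not given beside these counts. The shifts therefore need not be particular to muscle genes. Counts kept within 1.5 times under DESeq2, its size factors, robust fitting and without the highest library of each group.

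Values that changed sign were Tnnc1 in Renca on the first flow cell alone (-0.040), and between tumour lines Myh7 (-0.21) and Myh4 (-0.71) in responders alone and Acta1 (0.47) and Pvalb (0.37) in non-responders alone. The ratio of Myh4 to Myh7 in Renca changed sign with 5 added to counts (0.016), as did Tnni2 to Tnni1 between lines without the highest library of each group (-0.0051). By limma-trend the median fold change in AB1 was -0.22. Slow genes near 1 CPM rest on few counts.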
